A study of Homo sapiens with 15 samples.

Results

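The genes described here encode the subunits of the transcription factor NF-kB and the inhibitors that hold it back: NFKBIA, NFKBIB and NFKBIE (inhibitors of the IkB family), TNFAIP3 and BIRC3 (enzymes of ubiquitin signalling), and NFKB1, NFKB2, RELA and RELB (subunits). They were taken by symbol from a table of expression values, where each of the 9 symbols matched 1 of 24880 loci. RNA with poly(A) tails was measured in HK-2, an immortalised human kidney cell line from the proximal tubule, with 3 libraries in each of 5 groups. The cells, all wild type, were kept in serum-containing DMEM/F12. The mock group received PBS and is labelled 0 h. In the TGFb 1 h and TGFb 12 h groups the medium held 2 ug/ml of TGF-beta (TGFb) and DMSO, the vehicle. The TGFb + FT895 1 h and TGFb + FT895 12 h groups received the same TGFb with FT895, an inhibitor of the histone deacetylase HDAC11, at a dose not given in the sources used here. No group received FT895 alone, and mock also differed from the treated groups in time and in DMSO, so these cannot be told apart from TGFb. Nothing in the labels tells whether libraries of 1 group were separate cultures, and p-values then measure a spread that may be technical.

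NF-kB is a dimer of Rel proteins. In resting cells IkB proteins mask it in the cytoplasm. Receptors of the tumour necrosis factor, interleukin 1 and Toll-like families activate the IKK kinases, which mark IkB for destruction, and the freed RELA dimers enter the nucleus. A slower branch runs through the kinase NIK and the processing of the NFKB2 product p100 to p52, which pairs with RELB. NFKBIA, NFKBIE, TNFAIP3, BIRC3, NFKB1, NFKB2 and RELB are themselves textbook targets of NF-kB, so that several of the products that restrain the factor are made at its own command. In kidney tubules NF-kB is known for driving chemokines and survival genes during injury.

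Because several members are known targets, the sequences in front of them are shown first. RefSeq promoters (GRCh38.p14, 250 bases before to 50 bases after a start site) were at hand for 7 of the 9 genes, 12 promoters in all, with NFKBIE and RELB not among them. The kappa B consensus, the site of 10 letters that Rel dimers bind, was searched on both strands. It occurred in 6 of these 7 genes (85.7%) and in 7 of the 12 promoters, against 7.09% of all 27305 genes and 5.91% of all 35116 promoters of the same length. Some of the 13 matches overlap each other on opposite strands, as in NFKBIB and NFKB2. RELA, with a pair of promoters, held none. The stretch before the start of NFKBIA, the member that rose and then fell, holds 1 match, and the stretch before BIRC3, the member that fell furthest, holds 2. Both are shown 5′ to 3′ on the gene's strand, with the matches in capitals.
NFKBIA (chr14:35404750-35404999, minus strand): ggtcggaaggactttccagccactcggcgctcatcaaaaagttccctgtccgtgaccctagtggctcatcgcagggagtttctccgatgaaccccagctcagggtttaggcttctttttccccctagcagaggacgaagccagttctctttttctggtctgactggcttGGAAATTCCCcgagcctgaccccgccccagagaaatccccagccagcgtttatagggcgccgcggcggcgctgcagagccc
BIRC3 (chr11:102317234-102317449, plus strand): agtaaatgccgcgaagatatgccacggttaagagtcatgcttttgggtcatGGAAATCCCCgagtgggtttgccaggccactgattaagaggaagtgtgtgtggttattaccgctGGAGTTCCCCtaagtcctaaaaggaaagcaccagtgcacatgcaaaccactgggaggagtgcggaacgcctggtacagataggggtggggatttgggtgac
The match of NFKBIA begins at position -81 from the RefSeq start, and those of BIRC3 at -199 and -135. For 4 other genes a window of 10 bases on either side of a match is shown, so that the letters can be compared. The matches of TNFAIP3, NFKB1 and NFKB2 shown here touch annotated exons, counted for any gene on either strand. That of NFKB1 lies before the annotated start of NFKB1 at 102501329, so its exon belongs to another gene.
TNFAIP3 (chr6:137867194-137867223, plus strand): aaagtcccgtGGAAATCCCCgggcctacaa
TNFAIP3 (chr6:137867182-137867211, plus strand): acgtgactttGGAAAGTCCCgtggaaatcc
NFKB1 (chr4:102501300-102501329, plus strand): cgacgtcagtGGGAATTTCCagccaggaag
NFKBIB (chr19:38899931-38899960, plus strand): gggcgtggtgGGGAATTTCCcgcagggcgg
NFKB2 (chr10:102394461-102394490, plus strand): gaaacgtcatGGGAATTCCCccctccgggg
Several genes share a site once both strands are read. GGGAATTTCC stands on the gene's strand in NFKB1 and NFKBIB and, as GGAAATTCCC, on the opposite strand in NFKBIA. GGAAATCCCC occurs in both TNFAIP3 and BIRC3. The AP-1 site TGANTCA, present in 7.71% of all promoters, was found in 1 member promoter, of NFKBIB, and the SMAD palindrome GTCTAGAC, present in 0.202%, was found in none. A match is a run of letters and shows no binding in these cells.

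Values are FPKM as the authors computed them, that is, mapped fragments relative to the length of the transcript and to the size of the library. They scale each gene by its length, so levels of different genes can be set side by side. The depth of the libraries is unknown. Changes were tested on log2(FPKM + 1) with limma over the 12467 loci with at least 1 FPKM in at least 3 libraries. A call means a p under 0.05 after Benjamini-Hochberg adjustment over all of these loci. All 9 members passed the filter. Summed FPKM per library ran from 386532 to 434520. The library TGFb 1 h replicate 1 had the highest sum and stood apart from its group on the second principal component (-25, against -3.36 and -6.39). The response to TGFb was present: SMAD7, a direct SMAD target, went from 7.22 ± 0.194 FPKM in mock to 35.6 ± 0.784 at 1 h (mean ± SD, n = 3 here and for all groups). HDAC11 lay between 2.65 and 3.25 FPKM in the group means. Tubule markers were partly present: PAX8 and 6 others of 13 passed the filter, while LRP2 was listed at 0. The summed level of that list was 692 to 721 FPKM in mock and 818 to 898 at TGFb 12 h. PAX8 went from 53.4 ± 2.22 FPKM in mock to 25.1 ± 1.10 at TGFb 12 h, and CDH2 of that list from 94.0 ± 0.441 to 163 ± 2.38. Of leukocyte markers 2 of 8 passed, CD3E was listed at 0, and the summed level of the list was 35.9 to 47.3 FPKM over all libraries. Most of that sum was CD68, at 42.2 ± 1.59 FPKM in mock and 34.8 ± 2.49 at TGFb 12 h. CSF1R of that list went from 0.151 ± 0.0395 FPKM in mock to 2.64 ± 0.0198 at TGFb 12 h. Of endothelial markers 0 of 6 passed, with VWF and KDR listed at 0. Of fibroblast markers 2 of 7 passed, LUM and COL1A1, with PDGFRA listed at 0. The summed level of that list was 12.6 to 12.8 FPKM in mock and 50.8 to 53.0 at TGFb 12 h. LUM went from 9.68 ± 0.0822 FPKM in mock to 5.63 ± 1.38 at TGFb 12 h, and COL1A1 from 2.44 ± 0.229 to 45.4 ± 0.452. The share of these lists in the results below was not tested. In a bulk sample, fewer expressing cells and less RNA per cell cannot be told apart.

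After 1 h of TGFb NFKBIA and NFKBIE had risen and TNFAIP3 and BIRC3 had fallen. After 12 h NFKBIA was below mock, BIRC3 had fallen further, TNFAIP3 was still below mock, and NFKBIE and NFKB2 were above it. NFKB1, RELA, RELB and NFKBIB were not called at either time. In counts, 4 of 9 members were called at 1 h (2 up, 2 down), where 8.98% of all loci were called, 3.7% up and 5.28% down. At 12 h 5 of 9 were called (2 up, 3 down) against 38.6% of all loci, 14.2% up and 24.5% down. Between 12 h and 1 h of TGFb 4 of 9 were called (2 up, 2 down) against 41% of all loci, 16.8% up and 24.2% down, a share near the background. The called members are also those whose groups did not overlap, as 29.9%, 54.9% and 46.2% of all loci did not in the 3 comparisons. Without the library that stood apart, TGFb 1 h replicate 1, the same 4 members were called at 1 h, with log2 changes of 0.61 for NFKBIA, 0.43 for NFKBIE, -0.65 for TNFAIP3 and -0.78 for BIRC3. The median change over the 9 members was 0.10 at 1 h and 0.02 at 12 h on the log2 scale, beside -0.03 and -0.08 over all loci. These comparisons share samples: mock enters the first and second, and the TGFb groups enter the third again.

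**Figure D1:**
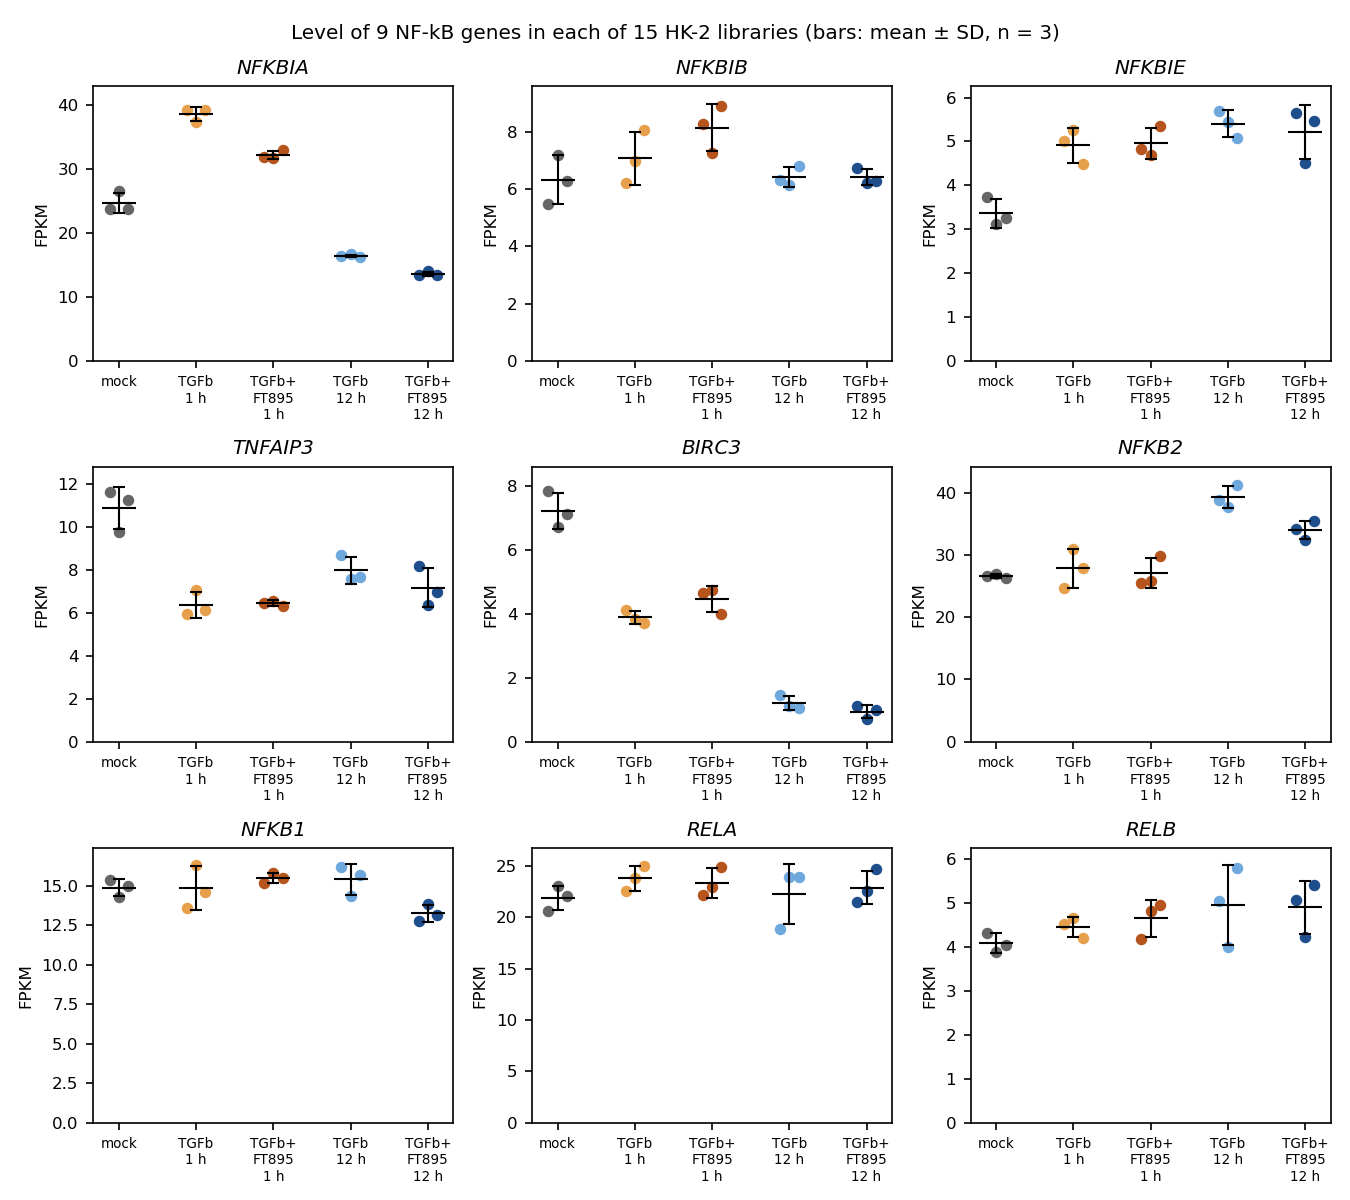
FPKM (vertical axes, from 0) of each of the 9 genes in the 15 libraries, 1 point per library, with bars for the mean ± SD of each group (n = 3). NFKBIA peaks at 38.6 FPKM with TGFb at 1 h and drops to 13.6 with TGFb and FT895 at 12 h, BIRC3 steps down from 7.21 to 0.943, and RELA stays between 18.9 and 24.98 in all libraries.

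NFKBIA (ENSG00000100906, chromosome 14, 35401511 to 35404749, minus strand, GRCh38 with GENCODE v29) encodes IkB-alpha, the inhibitor that masks RELA dimers and whose resynthesis ends a pulse of activity. Its levels were 23.8, 26.5 and 23.8 FPKM in mock and 39.2, 37.4 and 39.2 FPKM in the TGFb 1 h group. With TGFb for 12 h they were 16.4, 16.6 and 16.2 FPKM. The lowest library at 1 h lay above the highest mock library, and the highest at 12 h lay below the lowest mock library. NFKBIA rose by 0.62 on the log2 scale at 1 h (SE 0.0522, 1.54-fold, limma adjusted p = 1.60e-06). At 12 h it was lower than in mock by a log2 change of -0.56 (0.678-fold, limma adjusted p = 8.76e-07). Between 1 h and 12 h of TGFb the log2 change was -1.18 (0.440-fold, limma adjusted p = 4.36e-10), rank 35 by p among all tested loci. It was the only one of the 9 genes whose 5 groups were each apart from the next in order: TGFb 1 h, then TGFb + FT895 1 h, mock, TGFb 12 h and TGFb + FT895 12 h.

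NFKBIE (ENSG00000146232, chromosome 6, 44258166 to 44265788, minus strand) encodes IkB-epsilon, a slower inhibitor of RELA dimers. Mock libraries held 3.74, 3.11 and 3.25 FPKM and TGFb 1 h libraries 5.01, 5.26 and 4.48 FPKM. The TGFb 12 h libraries held 5.69, 5.43 and 5.08 FPKM. Every treated library lay above every mock library, while the 4 treated groups overlapped one another. NFKBIE rose by 0.44 at 1 h (SE 0.0881, limma adjusted p = 0.00768) and by 0.55 at 12 h (limma adjusted p = 0.000169), both log2 changes against mock. The call at 1 h was lost when only mock and TGFb 1 h entered the fit (limma adjusted p = 0.0535). Unlike NFKBIA, NFKBIE had a log2 change of 0.11 between 1 h and 12 h that was not called (95% interval -0.07 to 0.30).

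NFKBIB (ENSG00000104825, chromosome 19, 38899700 to 38908893, plus strand) encodes IkB-beta, which is degraded and remade more slowly than IkB-alpha. Its libraries ranged from 5.50 to 8.92 FPKM and all 5 groups overlapped their neighbours in order. It was not called in any comparison, with log2 changes against mock of 0.14 at 1 h (95% interval -0.07 to 0.35) and 0.02 at 12 h (-0.19 to 0.24). It shares 163 bases with SIRT2 on the opposite strand, a gene of up to 6.36 FPKM. With strandedness not given in the sources used here, reads of the pair cannot be told apart there.

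TNFAIP3 (ENSG00000118503, chromosome 6, 137867188 to 137883312, plus strand) encodes A20, an enzyme that edits ubiquitin chains on receptor complexes and thereby ends signalling to IKK. Mock libraries held 11.7, 9.77 and 11.2 FPKM, TGFb 1 h libraries 5.95, 7.05 and 6.11 FPKM, and TGFb 12 h libraries 8.71, 7.59 and 7.66 FPKM. Every treated library was below every mock library. The log2 change was -0.69 at 1 h (SE 0.0904, 0.620-fold, limma adjusted p = 0.000218) and -0.40 at 12 h (0.756-fold, limma adjusted p = 0.00267). From 1 h to 12 h TNFAIP3 rose by 0.29 (limma adjusted p = 0.0205). That partial return was no longer called without TGFb 1 h replicate 1 (limma adjusted p = 0.0606), TGFb 1 h replicate 3 (0.0600) or TGFb 12 h replicate 1 (0.0861), or when only the compared groups were fitted (0.0612). An annotated antisense RNA shares 1046 bases with TNFAIP3.

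BIRC3 (ENSG00000023445, chromosome 11, 102317450 to 102339403, plus strand) encodes cIAP2, a ubiquitin ligase of receptor complexes that blocks cell death and, in the slower branch, keeps NIK low. Its levels were 7.82, 6.70 and 7.11 FPKM in mock, 4.11, 3.83 and 3.72 FPKM at TGFb 1 h, and 1.47, 1.10 and 1.07 FPKM at TGFb 12 h. The 3 groups form a descending series without overlap. The log2 change was -0.75 at 1 h (SE 0.0974, 0.596-fold, limma adjusted p = 0.000205). It reached -1.90 at 12 h (0.269-fold, limma adjusted p = 1.25e-09), rank 104 by p among all tested loci. Between the times of TGFb the change was -1.15 (limma adjusted p = 4.05e-07). Since the values at 12 h are near 1 FPKM, the log2(FPKM + 1) scale understates the fall, and with a pseudocount of 0.1 the change at 12 h was -2.49. The close paralog BIRC2, which encodes cIAP1, went from 11.1 ± 0.736 FPKM in mock to 9.01 ± 1.01 at 1 h and 10.6 ± 2.34 at 12 h, and how reads were split between the pair cannot be checked from FPKM.

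NFKB2 (ENSG00000077150, chromosome 10, 102394110 to 102402529, plus strand) encodes p100, the precursor of p52, which in its long form also acts as an IkB. Apart from the alternative settings given below, it was the only subunit gene called. Mock libraries held 26.5, 26.9 and 26.3 FPKM, TGFb 1 h libraries 24.7, 31.0 and 27.9 FPKM, and TGFb 12 h libraries 38.9, 37.7 and 41.2 FPKM. The 12 h group lay above all mock and 1 h libraries, whereas the 1 h libraries lay on both sides of mock. NFKB2 rose by 0.55 at 12 h against mock (SE 0.0780, 1.46-fold, limma adjusted p = 6.40e-05) and by 0.49 against TGFb 1 h (limma adjusted p = 0.000198). Its log2 change at 1 h was 0.06 (95% interval -0.11 to 0.23) and was not called.

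The other subunits stayed within narrow ranges. RELA (ENSG00000173039, chromosome 11, 65653596 to 65663094, minus strand), the transactivating subunit p65, ran from 18.9 to 24.98 FPKM over all 15 libraries. Its log2 changes against mock were 0.11 at 1 h (95% interval -0.07 to 0.30) and 0.01 at 12 h (-0.17 to 0.20). NFKB1 (ENSG00000109320, chromosome 4, 102501329 to 102617302, plus strand), which encodes p105 and its processed form p50, ran from 12.8 to 16.3 FPKM. Its changes were 0.00 at 1 h (-0.15 to 0.14) and 0.05 at 12 h (-0.10 to 0.19). RELB (ENSG00000104856, chromosome 19, 45001430 to 45038198, plus strand), the partner of p52, ran from 3.88 to 5.82 FPKM, the lowest level of the 4 subunits. Its change at 12 h was 0.22 (limma adjusted p = 0.125, -0.01 to 0.44), and without TGFb 12 h replicate 2, the lowest library of that group at 4.01 FPKM, the change was 0.34 (limma adjusted p = 0.0199). A missed threshold does not show that these genes were unaffected, and the intervals give the sizes that remain possible.

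**Figure D2:**
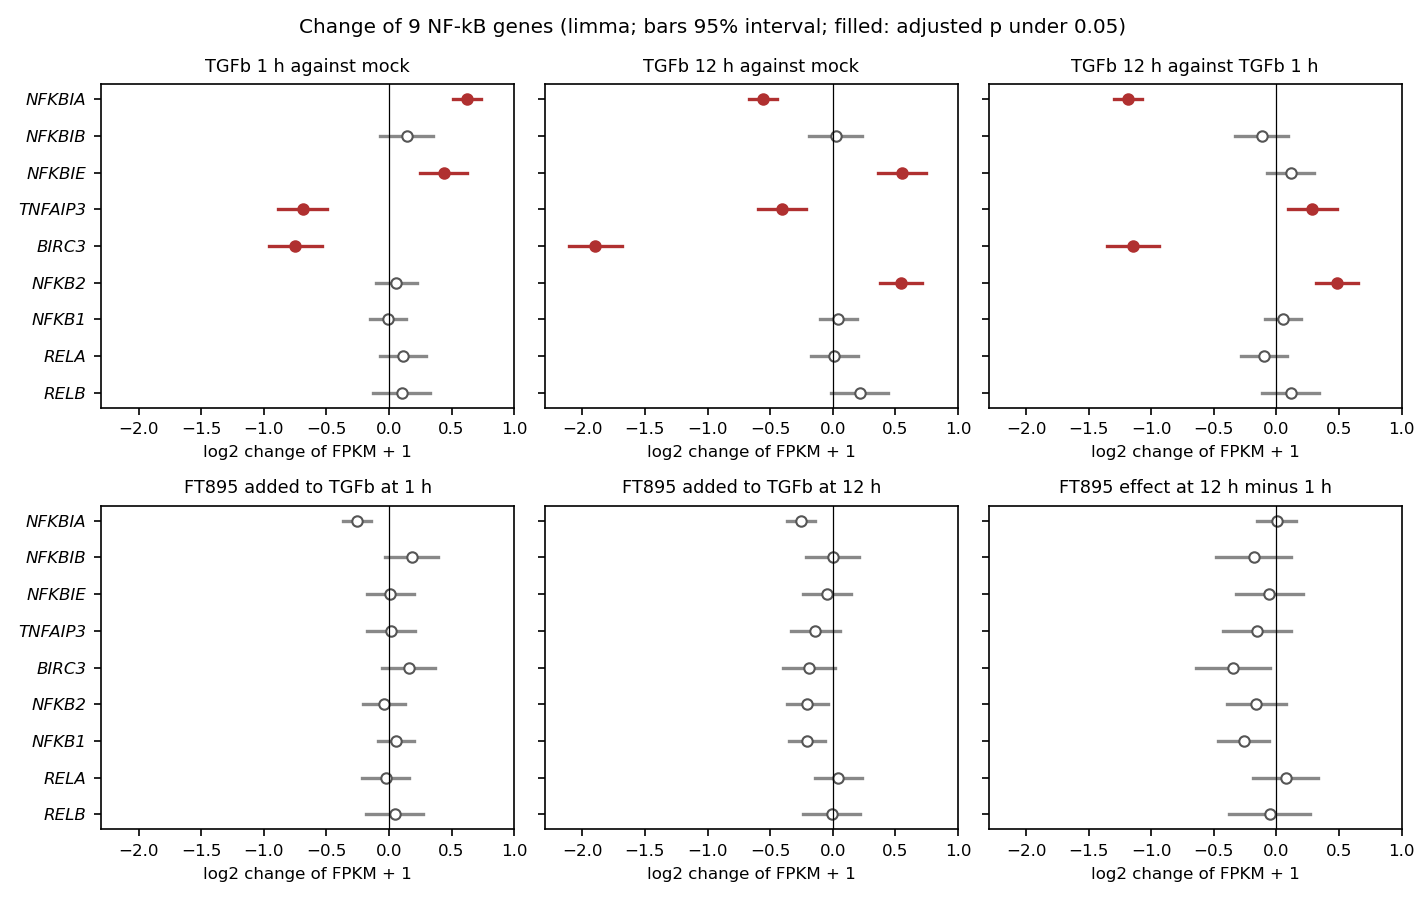
Log2 change of FPKM + 1 (horizontal axes) of the 9 genes in 6 comparisons, each with its 95% interval from limma, filled where the adjusted p was under 0.05. In the TGFb comparisons the called points are NFKBIA, NFKBIE, TNFAIP3, BIRC3 and NFKB2, and in the FT895 comparisons no point is called, with NFKBIA at -0.25 at both times.

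The balance of inhibitor and subunit transcripts followed from these movements and is given as a description, without a test. NFKB2 was counted only as a subunit, although p100 in its long form also acts as an IkB. Its mean was 26.6 FPKM in mock and 39.3 FPKM at TGFb 12 h, so its rise also lowers the ratio at 12 h. The summed FPKM of the 3 IkB genes over that of the 4 subunit genes was 0.510 ± 0.0272 in mock, 0.716 ± 0.0585 with TGFb at 1 h and 0.346 ± 0.0183 at 12 h. The 1 h libraries (0.655 to 0.772) lay above all mock libraries (0.494 to 0.542) and the 12 h libraries (0.325 to 0.360) below them. NFKBIA over RELA was 1.13 ± 0.0424 in mock, 1.63 ± 0.0989 at 1 h and 0.747 ± 0.106 at 12 h. By FPKM, NFKBIA transcripts therefore outnumbered those of RELA in mock and at 1 h, and not at 12 h. NFKBIA made up 71.8 ± 0.383% of the 3 IkB genes in mock, 76.3 ± 1.29% at 1 h and 58.1 ± 0.724% at 12 h. NFKB2 over NFKB1 was 1.79 ± 0.0847 in mock, 1.87 ± 0.0518 at 1 h and 2.55 ± 0.135 at 12 h. The ratio of the subunits p100 and p105 at the transcript level thus shifted between 1 h and 12 h, with the 12 h libraries (2.40 to 2.63) above all earlier ones.

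**Figure D3:**
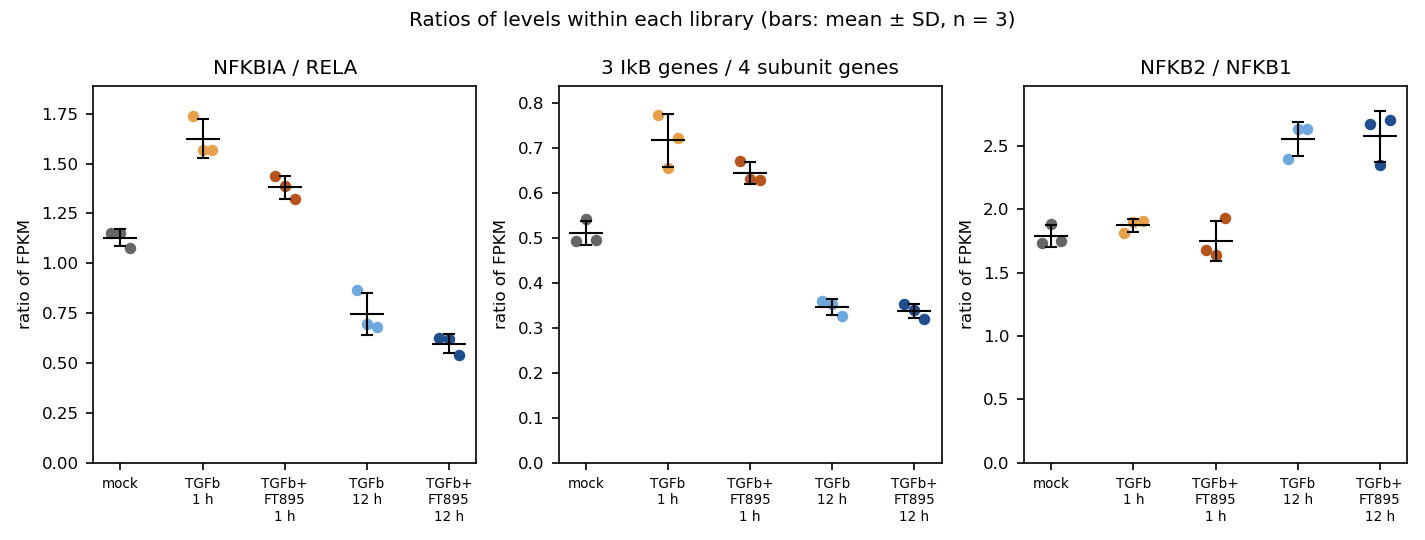
Ratios of FPKM within each library (vertical axes, from 0), 1 point per library, with bars for the mean ± SD of each group (n = 3). NFKBIA over RELA is 1.13 in mock, 1.63 at TGFb 1 h, 0.747 at TGFb 12 h and 0.597 at TGFb + FT895 12 h. In the same order the 3 IkB genes over the 4 subunit genes are 0.510, 0.716, 0.346 and 0.337. NFKB2 over NFKB1 is 1.79, 1.87, 2.55 and 2.57.

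Adding FT895 to TGFb addressed whether HDAC11 inhibition alters this response. No member was called at 1 h or at 12 h by limma, where 0.0722% and 0.016% of all loci were called. At an unadjusted p under 0.05 there were 1 and 3 members, beside 13.8% and 6.15% of all loci. NFKBIA was lower with FT895 at both times. Its libraries held 31.8, 31.8 and 33.0 FPKM with FT895 at 1 h, against 39.2, 37.4 and 39.2 without it. At 12 h they held 13.5, 14 and 13.4 FPKM with FT895, against 16.4, 16.6 and 16.2 without it. All 3 FT895 libraries were below all 3 libraries of TGFb alone at each time. Of the 12467 loci, 37 (0.297%) had that arrangement at both times. The arrangement was taken from the values of NFKBIA, so that share is no test of this gene. The log2 change was -0.25 at 1 h (95% interval -0.37 to -0.14, limma adjusted p = 0.103) and -0.25 at 12 h (-0.36 to -0.14, limma adjusted p = 0.102). These ranked 28 and 29 by p among all loci. NFKBIA was called at 1 h with median-of-ratios scaling (limma adjusted p = 0.0412) and, at both times, with library weights (limma adjusted p = 0.00214 at 1 h and 0.0321 at 12 h). With library weights 15.8% of all loci were called at 1 h. Without TGFb 1 h replicate 1 it was called at 12 h (limma adjusted p = 0.0398) and not at 1 h (0.0929).

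At 12 h the subunit precursors NFKB1 and NFKB2 were also lower with FT895 in every library, without passing the adjusted threshold. NFKB1 libraries held 12.8, 13.8 and 13.1 FPKM with FT895 and 16.2, 14.3 and 15.7 FPKM without it, a log2 change of -0.20 (95% interval -0.35 to -0.06, limma adjusted p = 0.589). NFKB2 libraries held 34.1, 32.4 and 35.4 FPKM with FT895 and 38.9, 37.7 and 41.2 FPKM without it, a log2 change of -0.20 (-0.37 to -0.03, limma adjusted p = 0.695). Over the 9 members, groups with and without FT895 did not overlap for 1 gene at 1 h and 3 at 12 h, where 16.3% and 13.9% of all loci did not overlap. The FT895 ratio of IkB to subunit transcripts was 0.644 ± 0.0240 at 1 h and 0.337 ± 0.0163 at 12 h, and at both times its range met that of TGFb alone. NFKBIA over RELA did not overlap, with 1.32 to 1.44 against 1.57 to 1.74 without FT895 at 1 h, and 0.543 to 0.628 against 0.678 to 0.869 at 12 h. NFKBIA as a percent of the 3 IkB genes did not overlap either. It was 69.8 to 72.6% against 75.3 to 77.7% at 1 h, and 52.0 to 56.6% against 57.7 to 58.9% at 12 h. Both measures hold the same NFKBIA values as above, so they are not separate observations. The remaining members gave intervals on both sides of 0 at both times. BIRC3 had 4.64, 4.73 and 4.002 FPKM with FT895 at 1 h and 1.11, 0.721 and 0.996 FPKM at 12 h, with log2 changes of 0.16 (-0.05 to 0.37) and -0.19 (-0.40 to 0.02). TNFAIP3 had 6.48, 6.56 and 6.30 FPKM at 1 h and 8.18, 6.39 and 6.99 FPKM at 12 h, with changes of 0.02 (-0.18 to 0.21) and -0.14 (-0.33 to 0.06). RELA had changes of -0.03 (-0.21 to 0.16) and 0.05 (-0.14 to 0.23).

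Whether the FT895 difference itself differed between the times was tested as an interaction, and no member was called, where 0.168% of all loci were called (limma, 2 members at an unadjusted p under 0.05, beside 7.84% of all loci). For NFKBIA the difference of differences was 0.00 (95% interval -0.16 to 0.16). BIRC3 had the widest gap, -0.34 (-0.64 to -0.05, limma adjusted p = 0.609), followed by NFKB1 at -0.26 (-0.47 to -0.06, limma adjusted p = 0.591).

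The other genes of the pathway were counted in lists chosen with earlier results of these data known, and no test was made over them. Their counts beside the shares of all loci are thus descriptions. Of receptors and adaptors that lead to IKK, 30 of 34 were measured, and at 12 h 1 rose, 11 fell and 18 were not called against mock (median -0.11, all loci -0.08). A call in either direction was made for 38.6% of all loci. TLR2, a Toll-like receptor, fell by 1.12 on the log2 scale, from 4.20 ± 0.372 to 1.41 ± 0.415 FPKM. BCL10, an adaptor of the CARD complexes, fell by 0.63, the death receptor gene TNFRSF21 by 0.58 and the lymphotoxin receptor gene LTBR by 0.49. At 1 h IRAK3, MALT1 and BCL10 were called lower and none higher, but that count of 3 was 0 without any 1 of the 3 mock libraries, 5 without TGFb 1 h replicate 1 (3 higher, 2 lower), 5 without TGFb 12 h replicate 1 (all lower), and 1 without most of the other treated libraries. Of the 18 genes of IKK kinases and ubiquitin chain assembly, 2 rose at 1 h and none fell, where 8.98% of all loci were called. These were the kinase genes MAP3K14, which encodes NIK (0.52, 7.28 ± 0.304 to 11 ± 1.82 FPKM, limma adjusted p = 0.00429), and MAP3K8 (0.41, limma adjusted p = 0.0362). Without any 1 mock library, or without TGFb 1 h replicate 1, 1 of these calls was left. The count was also 1 with no filter or with a replicate block, 0 when only the compared groups were fitted, and 8 with library weights. At 12 h 2 of the 18 rose and 3 fell, among them IKBKB, the catalytic IKK-beta (-0.74, 7.47 ± 0.273 to 4.06 ± 0.292 FPKM), TBK1 (-0.49) and IKBKE (-0.48), while XIAP rose by 0.40. These 5 calls of 18 stand beside 38.6% of all loci at 12 h, and without TGFb 1 h replicate 1 they became 8.

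Among 7 other Rel and IkB family genes, BCL3, a nuclear IkB that binds p50 and p52, rose by 0.52 at 1 h, and NFKBIZ, the nuclear IkB-zeta, had a log2 change of -0.38. BCL3 lost its call without any 1 mock library and without TGFb 1 h replicate 2 or 3. At 12 h none of the 7 was called (limma, 0 at an unadjusted p under 0.05). That count became 1 with library weights (higher), with only the compared groups fitted (higher) and without mock replicate 3 (lower). Between the times BCL3 fell by 0.79 and NFKBIZ rose by 0.34, and without TGFb 1 h replicate 2 these 2 calls became 5. Of 17 measured other negative regulators of 20, 3 rose at 1 h and none fell, and at 12 h 6 rose and 1 fell (median 0.07, all loci -0.08). Over all loci 8.98% were called at 1 h, 38.6% at 12 h and 41% between the times. ZFP36, which encodes an RNA-binding protein that destabilises cytokine transcripts, went from 1.92 ± 0.180 FPKM in mock to 10.1 ± 0.789 at 1 h and 3.63 ± 0.435 at 12 h, log2 changes of 1.93 and 0.66. ZC3H12A, which encodes the ribonuclease Regnase-1, went from 13.6 ± 0.506 to 24.6 ± 1.05 and 17.3 ± 0.266 FPKM, changes of 0.81 and 0.33. Without mock replicate 1 the 7 calls at 12 h became 4.

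Cytokine, chemokine and adhesion targets of NF-kB split at 1 h and were mostly lower at 12 h. Of 32 listed genes, 3 were at 0 in all libraries and 19 were measured. At 1 h 5 rose and 6 fell (median 0.03, all loci -0.03). Over all loci 3.7% were called up and 5.28% down at 1 h, and 14.2% and 24.5% at 12 h. CXCL2, a neutrophil chemokine, went from 10.5 ± 1.11 to 2.43 ± 0.544 FPKM (-1.75, limma adjusted p = 1.74e-06), and CSF2, which encodes GM-CSF, from 34.2 ± 2.90 to 95.2 ± 4.71 FPKM (1.45, limma adjusted p = 7.71e-08). LTB (-0.72) and CXCL3 (-0.66) fell as well. The count of 11 at 1 h was 6 or 7 without any 1 mock library. At 12 h 4 rose and 10 fell (median -0.48, all loci -0.08), led by CXCL2 (-1.74), the pentraxin gene PTX3 (-1.64), CX3CL1 (-1.08) and TNFSF10, which encodes TRAIL (-1.01). Survival, feedback and other targets leaned the other way at 1 h. Of 34 measured genes of 38, 14 rose and 4 fell at 1 h (median 0.20, all loci -0.03), and 14 rose and 9 fell at 12 h (median 0.02, all loci -0.08). JUNB, a subunit of AP-1, went from 27.5 ± 3.4 to 178 ± 25.6 FPKM at 1 h (2.65), GADD45B rose by 2.40 and IER3 by 1.97, while KLF6 fell by 0.99. At 12 h JUNB, IER3 and GADD45B had risen by 2.12, 1.95 and 1.62. BCL3, NFKBIZ, ZC3H12A and TNIP1 stand in more than 1 list, as does TRAF1, which did not pass the filter. Many of the listed genes answer to other factors too.

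**Figure D4:**
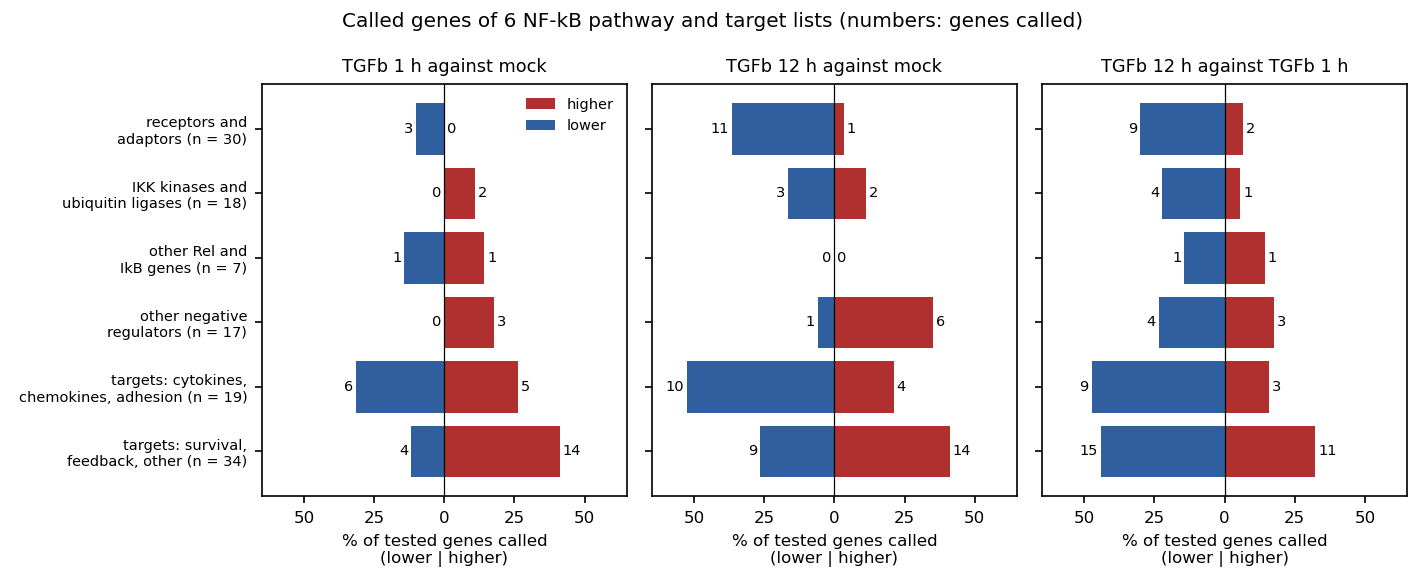
Share of the measured genes of 6 NF-kB pathway and target lists (horizontal axes, % of the n given in each label) that were called higher (red, right) or lower (blue, left) in 3 comparisons, with the number of genes at each bar. Of cytokine, chemokine and adhesion targets 10 of 19 are lower and 4 higher at TGFb 12 h against mock. Of survival, feedback and other targets 14 of 34 are higher and 4 lower at TGFb 1 h. Over all loci 24.5% are lower and 14.2% higher at 12 h, and 5.28% lower and 3.7% higher at 1 h. The lists were chosen with earlier results of these data known.

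With FT895, 0 genes of any of the 6 lists were called by limma at either time or in the interaction. At an unadjusted p under 0.05 there were 2 of 19 cytokine targets and 3 of 34 survival targets at 1 h, where 13.8% of all loci passed. At 12 h there were 7 and 11, where 6.15% of all loci passed. The nearest to the threshold at 12 h, chosen after their values were seen, were CSF1 and TNFSF10. CSF1 went from 23.4 ± 0.640 FPKM with TGFb to 16.8 ± 0.638 with FT895 added (-0.45, limma adjusted p = 0.0516), and TNFSF10 from 31.5 ± 3.23 to 23.0 ± 0.649 FPKM (-0.43, limma adjusted p = 0.0516). Cytokine targets called at 12 h went from 0 to 2 without TGFb 1 h replicate 1 or 3 and to 1 without replicate 2, and survival targets to 1 without replicate 1. The cytokine count was also 2 with a pseudocount of 0.1 or 0.5, with median-of-ratios scaling and with library weights, and 1 with quantile normalization. The list of cytokine targets had a median change of -0.11 with FT895 at 12 h, and the survival list -0.09, beside 0.01 over all loci.

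Genes whose profiles over the 15 libraries were most like those of the members were found as the smallest mean absolute difference of centred log2(FPKM + 1) values, for the 5 members whose group means spanned at least 0.5. Nearest to NFKBIA were TNFAIP2 (0.115), PIM3 (0.128) and SERPINB8 (0.142). TNFAIP2 went from 29.1 ± 1.14 FPKM in mock to 34.3 ± 4.15 at 1 h and 17.3 ± 0.689 at 12 h, and with FT895 to 31.7 ± 0.606 and 13.5 ± 0.893. Nearest to TNFAIP3 were ZNF217 (0.0672), SGK1 (0.104) and TENT5A (0.106), each highest in mock and lowest in a 1 h group. Nearest to BIRC3 were NABP1 (0.115), ZBED2 (0.142) and SLCO4C1 (0.146). NABP1, a gene of single-stranded DNA binding, went from 39.5 ± 2.37 FPKM in mock to 21.4 ± 1.12 at 1 h and 8.5 ± 2.38 at 12 h. Nearest to NFKBIE were YTHDF1 (0.0761), BAG3 (0.0775) and PXDC1 (0.0798), and nearest to NFKB2 were ABTB2 (0.0498), MMP15 (0.0557) and NDE1 (0.0561), which were lowest in mock and highest at 12 h. None of the nearest genes of one member recurred for another. The points share libraries and normalisation, and likeness says nothing of shared control.

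**Figure D5:**
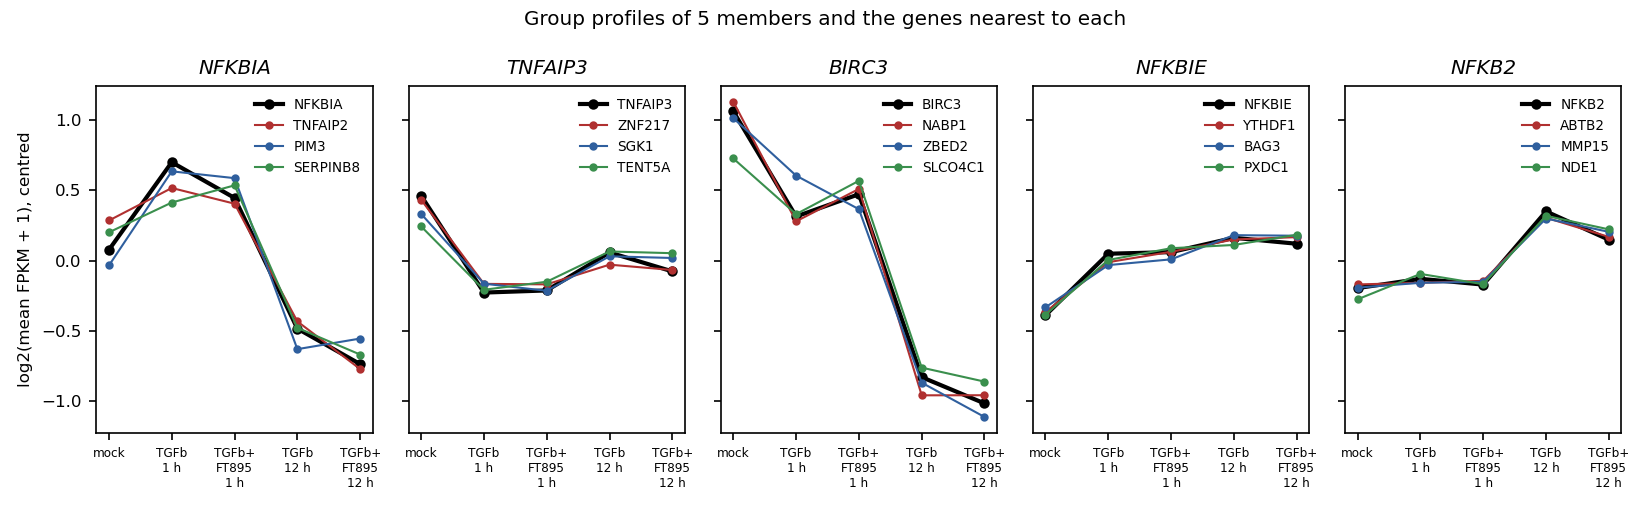
Group means (log2 of mean FPKM + 1, centred on their own mean, vertical axis) of 5 members in black and of the 3 genes nearest to each in colour, over the 5 groups. The black NFKBIA line peaks at TGFb 1 h and ends lowest at TGFb + FT895 12 h, the black BIRC3 line spans 2.08 log2 units, and the black NFKB2 line is highest at TGFb 12 h.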

How the data were processed

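The deposited FPKM values, 1 column per library, come from reads that the authors aligned with HISAT2 to GRCh38 and quantified with StringTie, per the submitters' processing notes. Versions, annotation and strandedness are not stated there. Per the labels' protocols, RNA was taken up in Trizol, treated with DNase I and sequenced on an Illumina instrument. The table lists 19974 Ensembl genes, all found in GENCODE v29, and 4906 unannotated loci. Low values gave no read unit, so no counts could be recovered and no counting interval is given.

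From the FPKM values, log2(FPKM + 1) was fitted with limma (version 3.58.1, R version 4.3.3; lmFit and trended eBayes, 5 group means over 15 libraries, 10 residual degrees of freedom) for loci that reached 1 FPKM in 3 or more libraries. Tests were two-sided and adjusted by Benjamini-Hochberg over 12467 loci within each of 6 comparisons. The fit was tested on simulated data. Fold changes are on the log2(FPKM + 1) scale and understate those of low genes. Named genes are all 9 members, up to 4 called genes of largest change per list and comparison, the 3 genes nearest in profile to each member that ranged by 0.5 or more, and SMAD7 and HDAC11; a few that the rule gives are not reported here. The members and lists were chosen with earlier results of these data known. Promoter sequences are RefSeq's (GRCh38.p14). Alternatives were other pseudocounts (0.1 and 0.5), no filter, 2 other scalings, library weights, a fit of the compared groups, a replicate block, and leaving out each library.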

Additional observations from a re-analysis of the deposited data

How the results depend on the processing

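Of 1242 values of the 9 members under 23 alternatives, 1175 kept their direction and their side of the threshold. The calls of NFKBIA, BIRC3, NFKB2 and TNFAIP3 against mock held under all 23. Members called with FT895 at 1 h went from 0 to 1 with median-of-ratios scaling and to 1 with library weights; at 12 h they went from 0 to 1 with library weights and ran from 0 to 1 when 1 library was left out, the 1 being without TGFb 1 h replicate 1. The gene was NFKBIA in each case. NFKBIB was called with library weights at TGFb 1 h against mock (0.29, limma adjusted p = 0.0107) and between the times (-0.25, 0.0188), as was RELA at 1 h (0.17, 0.0321), and RELB at 12 h with quantile normalization (0.29, 0.0469). The cause was not tested. Library weights raised the loci called at 1 h from 1119 to 3985, with FT895 at 1 h from 9 to 1974, with FT895 at 12 h from 2 to 59 and in the interaction from 21 to 59, and cytokine targets called with FT895 at 12 h from 0 to 2. With only the compared groups fitted, 373 loci were called at 1 h and 3188 between the times, against 5113. The loci called higher and lower against mock were 461 and 658 at 1 h, and 584 and 514 with median-of-ratios scaling. At 12 h they were 1765 and 3049, 2293 and 2043 with that scaling, and 2178 and 2463 with quantile normalization.

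All members whose sign changed were uncalled and near 0. With a pseudocount of 0.1 or 0.5, NFKBIA in the FT895 interaction was -0.00776 or -0.00372. With quantile normalization NFKBIA, NFKBIE and RELB were -0.00709, 0.0120 and 0.0228 in the interaction, NFKBIE, TNFAIP3 and RELB were -0.0658, -0.0585 and -0.0411 with FT895 at 1 h, and NFKB1 was 0.00838 at TGFb 1 h against mock. With median-of-ratios scaling NFKBIE, TNFAIP3 and RELB were -0.0363, -0.0321 and -0.000641 with FT895 at 1 h, and NFKB1 was 0.0294 at TGFb 1 h against mock. With library weights RELA was -0.0200 with FT895 at 12 h. Leaving out 1 library gave these ranges for results that changed sign. In the interaction they were -0.0179 to 0.0225 for NFKBIA, -0.110 to 0.0252 for NFKBIE, -0.0363 to 0.127 for RELA and -0.173 to 0.0491 for RELB. With FT895 at 12 h they were -0.0319 to 0.0375 for NFKBIB, -0.0984 to 0.0372 for NFKBIE, -0.0636 to 0.09997 for RELA and -0.126 to 0.0962 for RELB. With FT895 at 1 h they were -0.0421 to 0.0535 for NFKBIE, -0.0227 to 0.0830 for TNFAIP3, -0.12 to 0.0384 for NFKB2 and -0.0742 to 0.00813 for RELA. Against mock they were -0.0597 to 0.109 for NFKBIB and -0.0406 to 0.123 for RELA at 12 h, and -0.0709 to 0.0524 for NFKB1 and -0.0172 to 0.141 for NFKB2 at 1 h. Between the times they were -0.00665 to 0.117 for NFKB1 and -0.154 to 0.00922 for RELA.

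Replicate numbers in the labels did not pair the libraries: over 30 same-numbered pairs the correlation of deviations ran from -0.137 to 0.113, and in 20 of 60 cases a library correlated best with its own number. With the replicate as a block the members called were 4, 5 and 4 for TGFb and 0 with FT895, as without it. FPKM carries no depth, so the precision of low genes such as BIRC3 at 12 h rests on the spread of 3 libraries.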
